A study of Mus musculus with 3 samples.

Results

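Interferon-stimulated genes were followed along the epithelium of the mouse intestine, through its large, lower small and upper small parts. The genes were chosen by name, as 40 commonly used members of this group, and 39 of them were found among the 24346 genes of the files. Earlier results of these data were known when the list was made. Rnf213 was not analysed here. Each region was represented by 1 RNA sequencing library of epithelial cells, released from opened and washed intestine by shaking in 5 mM EDTA at 37 °C for 20 min, so no difference given here has a replicate check and no test across samples was possible. The labels name no cell sort, no treatment, no genotype, no age and no number of animals for any library. The source name of each library begins with SPFm, which may stand for specific-pathogen-free mice. A strain entry stands on the upper small intestinal library alone and names MC38, a colorectal cancer model. Should the entry hold, strain and region cannot be told apart wherever the upper library is compared. Epithelial identity was checked on 12 marker genes, none of which was at 0 in any library. Epcam, an epithelial adhesion molecule, was at 806 FPKM in the large, 879 FPKM in the lower and 666 FPKM in the upper library. FPKM counts sequenced fragments per kilobase, relative to the size of the library.

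Interferons are cytokines that cells release on sensing viral or microbial nucleic acids, or, in the case of interferon gamma, that activated lymphocytes release. Type I and type III interferons act through their receptors and the kinases Jak1 and Tyk2 on a complex that holds Stat2 and Irf9 and binds a DNA element called the interferon-stimulated response element (ISRE). Interferon gamma acts through Jak1 and Jak2, and its signal reaches DNA at the gamma-activated site (GAS). Intestinal epithelial cells are known for their response to type III interferon, and many interferon-stimulated genes also have a steady level in tissue without infection.

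The stretches before the start sites of some members are shown first because they carry the elements by which these genes are grouped below. Sequences are from RefSeq (GRCm38.p6, the assembly also called mm10), 60 bases each, written on the strand of the gene. Capitals mark the letters of the ISRE core, GAAA followed by GAAA with any 2 bases between, on either strand, or of the GAS core TTCNNNGAA, which reads the same on both strands.
Isg15 (chr4:156200862-156200921, minus strand, ISRE): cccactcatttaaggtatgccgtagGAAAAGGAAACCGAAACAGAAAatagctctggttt
Ifit1 (chr19:34640760-34640819, plus strand, ISRE): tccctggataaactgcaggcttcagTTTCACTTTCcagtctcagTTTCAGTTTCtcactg
Oas3 (chr5:120777700-120777759, minus strand, ISRE): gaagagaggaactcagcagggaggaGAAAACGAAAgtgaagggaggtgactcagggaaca
Oas1a (chr5:120907526-120907585, minus strand, ISRE): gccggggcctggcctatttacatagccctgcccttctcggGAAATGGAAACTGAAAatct
Oas1g (chr5:120887614-120887673, minus strand, ISRE): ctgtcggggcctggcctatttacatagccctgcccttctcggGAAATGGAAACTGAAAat
Irf1 (chr11:53769899-53769958, plus strand, GAS): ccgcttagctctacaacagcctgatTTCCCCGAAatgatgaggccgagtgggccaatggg
Gbp7 (chr3:142530205-142530264, plus strand, GAS): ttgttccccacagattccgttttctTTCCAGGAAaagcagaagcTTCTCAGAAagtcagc
Igtp (chr11:58199486-58199545, plus strand, GAS): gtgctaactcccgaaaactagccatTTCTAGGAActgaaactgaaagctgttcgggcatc
Irgm2 (chr11:58214877-58214936, plus strand, GAS): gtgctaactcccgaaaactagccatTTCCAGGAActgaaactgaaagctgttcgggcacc

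In the stretches marked GAS only the GAS core is in capitals, and those of Igtp and Irgm2 also hold the ISRE core, in lower case just after it. In the Isg15 stretch 3 overlapping matches to the ISRE core form 1 run, and in the Ifit1 stretch 2 matches lie apart on the other strand. The Igtp and Irgm2 stretches were identical at 58 of 60 bases. The promoter windows of Oas1a and Oas1g, 300 bases each, were 85.3% identical. A promoter window, from 250 bases before to 50 bases after the start site, was at hand for 29 of the 39 members. Of these, 19 held the ISRE core on either strand (65.5%), against 3.91% of the 17191 genes of the files with such a window. The GAS core was held by 8 of 29 (27.6%), against 9.27%. Neighbouring matches can share bases, as in Isg15, and each gene was counted once. The ISRE and GAS cores were searched separately and may overlap. Members named for their response to interferon were chosen with such elements known, so these shares describe the list. A match to the letters is not a measured binding site, and the absence of a match concerns this window alone.

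**Figure D1:**
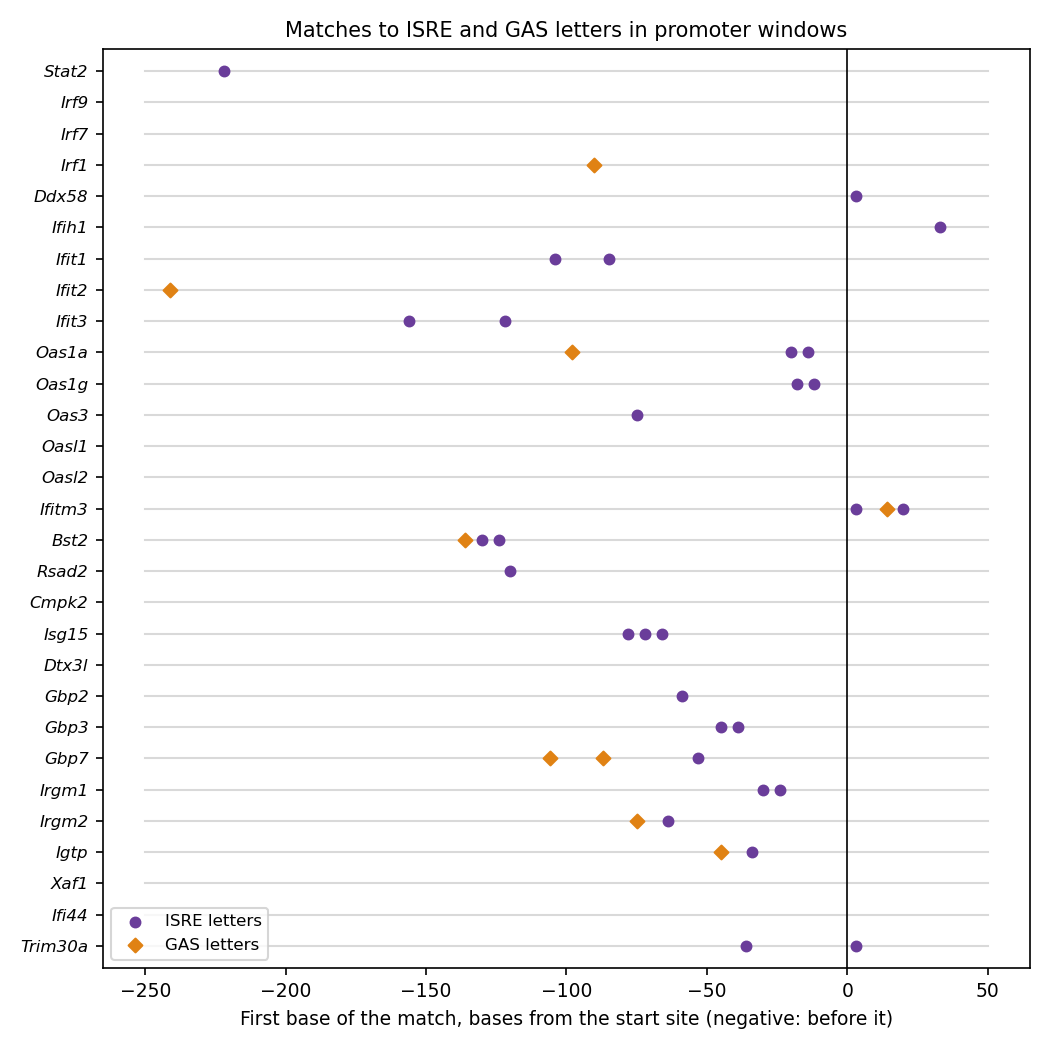
Position of each match to the ISRE core (circles) and the GAS core (diamonds) in the promoter windows of 29 members, in bases from the start site (x axis). Matches to the ISRE core lie in 19 windows and matches to the GAS core in 8, with 33 of the 39 matches beginning before the start site.

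The 3 libraries were of similar depth. Low values were spaced so that 1 FPKM, for a 2 kb transcript, corresponded to 14.6 to 21.7 reads, and 11491 to 11595 genes reached 1 FPKM. Ratios between libraries are given below with 95% Clopper-Pearson intervals in brackets, computed from the reads that each FPKM value implies in the shortest annotated transcript of the gene. Read numbers given below are therefore low estimates where a gene has several annotated transcripts, and intervals are wide for genes with a short one. Full annotated lengths were used, and whether the deposited values rest on shorter ones was not known. These intervals cover counting error alone, and several reads may stem from 1 molecule. They do not hold the spread between animals or preparations. Differences called log2 are those of log2(FPKM + 1), which understates differences of low genes.

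Interferon-stimulated genes as a group were lower in the large intestine than in either part of the small intestine. The rule of size used for calls, which is no test, was a log2 difference of at least 1 in either direction. Compared with the lower small intestine, 23 of 39 members were lower in the large intestine and none was higher. Of 12376 genes measured there, 10.5% were lower, 9.75% higher and 20.2% either. Against the upper small intestine 20 members were lower and 2 higher, where 11.7% of 12350 measured genes were lower, 11.2% higher and 22.9% either. The median log2 difference of the members was -1.31 against the lower and -1.004 against the upper library, beside medians near 0 over all measured genes. The 2 comparisons share their large intestinal library. The large library held the lowest of the 3 levels in 33 of 39 members (84.6%), and in 42.0% of 12579 genes at 1 FPKM or more in any library.

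By counting error alone, the interval of the ratio excluded 1 for 28 members lower in the large library against the lower library and for none higher. Against the upper library it did so for 27 lower and 2 higher members. The share of all genes whose interval excludes 1 was not computed, so these counts have no background beside them. With all libraries brought to 1 summed FPKM, the members called lower in the large intestine numbered 20 and 15, and none and 2 were higher. Of all measured genes 8.01% were then lower in each comparison, and 14.2% and 17.8% were higher. That rescaling moved the median of all genes by 0.27 and 0.36, and relative to it the member medians were -1.30 and -0.98. Among all genes it also moved the share of calls that were higher in the large intestine from 48.2% to 64.0% against the lower and from 49.0% to 69.0% against the upper library.

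**Figure D2:**
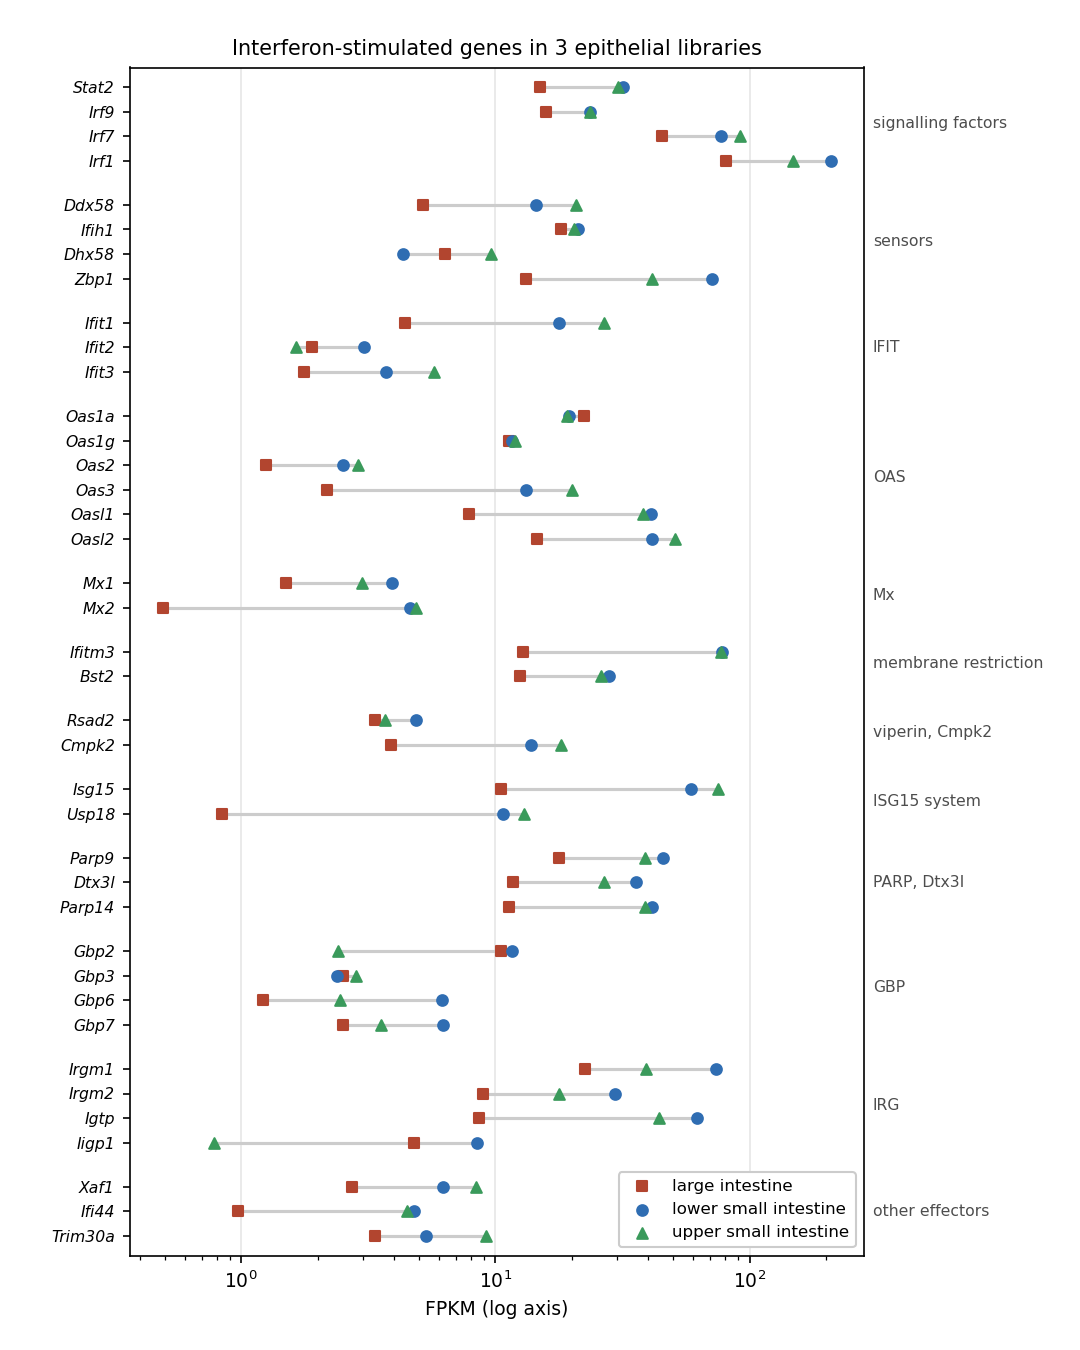
FPKM (x axis, log scale) of 39 interferon-stimulated genes in the 1 library of each region, grouped by role, with a grey line from the lowest to the highest of the 3 values. The square of the large intestine is the lowest mark in 33 rows.

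Other cell types were represented unequally in the libraries. The summed level of 10 T cell marker genes was 18.0 FPKM in the large, 593 FPKM in the lower and 596 FPKM in the upper library, and all 10 were called lower in the large library against the lower library. Cd3e, a chain of the T cell receptor complex, was at 0.977, 13.8 and 14.8 FPKM, with lists of 3 values here and below in the order large, lower and upper. Of 6 B and plasma cell markers, 5 were at 0 in the large library, and the sums were 0.097, 30.7 and 30.1 FPKM. The sums of 10 myeloid markers were 20.9, 50.9 and 35.9 FPKM, with Ptprc, which marks all leukocytes, at 1.73, 15.3 and 12.8 FPKM. Cd14, also on that list, went the other way at 15.7, 6.07 and 5.61 FPKM and made up most of the sum in the large library. The fibroblast, endothelial and smooth muscle lists had sums of at most 5.01 FPKM in any library. The 12 epithelial markers were divided, with a median log2 difference of 0.02 from the lower and 0.37 from the upper library. Against the lower library 2 were called lower in the large one and none higher, and against the upper library 1 was lower and 3 higher. Vil1 and Krt20, both high in mature surface cells, were lowest in the large library, Vil1 at 278, 913 and 974 FPKM and Krt20 at 361, 968 and 702 FPKM. Cdx1, Krt18 and Krt19 were highest there, with Cdx1 at 170, 100.3 and 62.7 FPKM. The part of these cell types and of epithelial maturity in the differences of the members was not tested. In bulk samples fewer cells of a type and less RNA per cell cannot be told apart.

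The 4 signalling factors among the members had their lowest level in the large library. Stat2 and Irf1 were called lower there against the lower library, and none of the 4 was called against the upper one. Stat2, a subunit of the ISRE-binding complex, was at 14.9, 31.9 and 30.3 FPKM. Its lower to large ratio was 2.13 (1.57 to 2.93) and its upper to large ratio 2.03 (1.46 to 2.86), and the log2 difference of -1.04 from the lower library passed the rule while that of -0.97 from the upper did not. Irf9, the DNA-binding subunit of the same complex, was at 15.8, 23.5 and 23.6 FPKM. Irf7, which amplifies type I interferon production, was at 45.4, 77.2 and 91.5 FPKM. Irf1, a transcription factor induced through the GAS element shown above, had the highest level of all members, at 80.6, 209 and 148 FPKM. The 3 levels of Irf1 were apart by more than counting error, with a lower to large ratio of 2.59 (2.30 to 2.93) and a lower to upper ratio of 1.41 (1.27 to 1.56).

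Sensors of foreign nucleic acid differed among themselves. Ddx58, which encodes the RNA sensor RIG-I, was at 5.20, 14.4 and 20.9 FPKM and was called lower in the large library against each small intestinal one. Zbp1, a sensor of Z-form nucleic acid that can start cell death, was at 13.2, 70.9 and 41.5 FPKM, with a lower to large ratio of 5.39 (4.27 to 6.80). Ifih1, which encodes the RNA sensor MDA5, was nearly level at 18.1, 21.2 and 20.4 FPKM. Its ratios of 1.17 (0.851 to 1.62) and 1.13 (0.785 to 1.60) to the large library had intervals that include 1. These intervals rest on its shortest annotated transcript, 439 bases where the longest has 5470, so a small difference is not excluded. Dhx58, which encodes LGP2, a relative of both that lacks their signalling domains, was at 6.33, 4.35 and 9.62 FPKM. Dhx58 and Gbp3 were the members with their lowest level in the lower library.

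Of the IFIT genes, whose products bind viral RNA, Ifit1 had the largest ratios to the large library. Ifit1 was at 4.40, 17.8 and 26.7 FPKM, with an upper to large ratio of 6.08 (4.88 to 7.59). Ifit3 was at 1.77, 3.71 and 5.75 FPKM, and 51.2% of its 50-base words also occur in its copy Ifit3b, so its value is uncertain. Ifit2 was low in all 3 libraries, at 1.89, 3.03 and 1.64 FPKM, and its ratios to the large library had intervals that include 1.

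The OAS genes, whose enzymes make the 2-5A signal that activates RNase L, fell into level and unlevel members. Oas3 was at 2.18, 13.2 and 19.97 FPKM, with a lower to large ratio of 6.06 (3.44 to 11.9) and an upper to large ratio of 9.18 (5.23 to 18.1). Oasl1 and Oasl2, relatives of these enzymes on the same chromosome, were at 7.91, 40.8 and 37.98 FPKM and 14.6, 41.3 and 50.9 FPKM. Both were called lower in the large library against each small intestinal one. Oas1a was level at 22.3, 19.5 and 19.2 FPKM, and Oas1g at 11.4, 11.6 and 11.99 FPKM. Oas1a was the only member with its highest level in the large library, by a margin within counting error (lower to large ratio 0.874, 0.756 to 1.013). Both Oas1 genes hold 2 overlapping ISRE cores close to the start site, as shown above, and Oas3, on the same chromosome and with 1 core, differed at least 3.44-fold by the bound of its interval. Of the 50-base words of Oas1a and Oas1g, 57.6% and 45.7% occur in other genes, mostly in each other, so the split of reads between them is uncertain. Oas2 was at 1.25, 2.51 and 2.88 FPKM, and the intervals of its ratios to the large library included 1.

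The 2 restriction factors at membranes were both called lower in the large library, by different margins. Ifitm3, which blocks fusion of viruses with cell membranes, was at 12.9, 77.8 and 77.3 FPKM, with ratios of 6.03 (4.71 to 7.77) and 5.998 (4.65 to 7.78) to the large library. Bst2, which encodes tetherin, was at 12.5, 28.0 and 26.1 FPKM. It met the rule narrowly, with log2 differences of -1.10 and -1.004. The Mx genes encode dynamin-like antiviral GTPases, and many inbred mouse strains carry defective alleles of them. Mx1 was at 1.51, 3.91 and 2.98 FPKM and passed in neither comparison. Mx2, annotated as a polymorphic pseudogene, was at 0.492, 4.59 and 4.87 FPKM. It rested on about 2 implied reads in the large library, which gave a lower to large ratio of 9.34 (2.63 to 91.0).

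The ISG15 system had the widest gap of the 12 roles by median, at log2 differences of -2.52 and -2.82. Isg15, a ubiquitin-like protein that is attached to other proteins, was at 10.5, 58.7 and 75.3 FPKM. Its ratios to the large library were 5.57 (4.33 to 7.34) in the lower and 7.14 (5.53 to 9.44) in the upper library. Usp18, which removes Isg15 from proteins and dampens the type I receptor, was at 0.837, 10.7 and 12.9 FPKM. Its upper to large ratio of 15.4 (4.97 to 51.9) was the largest of all members, with about 4 implied reads behind the large intestinal value. Cmpk2, a mitochondrial nucleotide kinase, was at 3.88, 13.8 and 18.1 FPKM. Rsad2, its neighbour on chromosome 12, which encodes the antiviral enzyme viperin, was at 3.35, 4.86 and 3.68 FPKM. The intervals of its ratios included 1, computed from a shortest transcript of 430 bases where the longest has 4189.

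Parp9, Dtx3l and Parp14, which lie together on chromosome 16 and act in ADP-ribosylation and ubiquitination, were all called lower in the large library against each small intestinal one. Parp9 was at 17.8, 45.7 and 38.7 FPKM, Dtx3l, its partner E3 ligase, at 11.8, 35.7 and 26.7 FPKM and Parp14 at 11.3, 41.2 and 38.9 FPKM. Parp9 and Dtx3l lie on opposite strands and overlap by 682 bases, so their reads in that stretch can be told apart only if strand was used in counting. Of the remaining effectors, Ifi44 was at 0.969, 4.76 and 4.51 FPKM, Xaf1, a pro-apoptotic protein, at 2.73, 6.25 and 8.40 FPKM and Trim30a, a regulator of innate signalling, at 3.37, 5.33 and 9.19 FPKM. All 3 passed the rule against the upper library and Ifi44 alone against the lower, with Xaf1 just short of it at a log2 difference of -0.96.

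**Figure D3:**
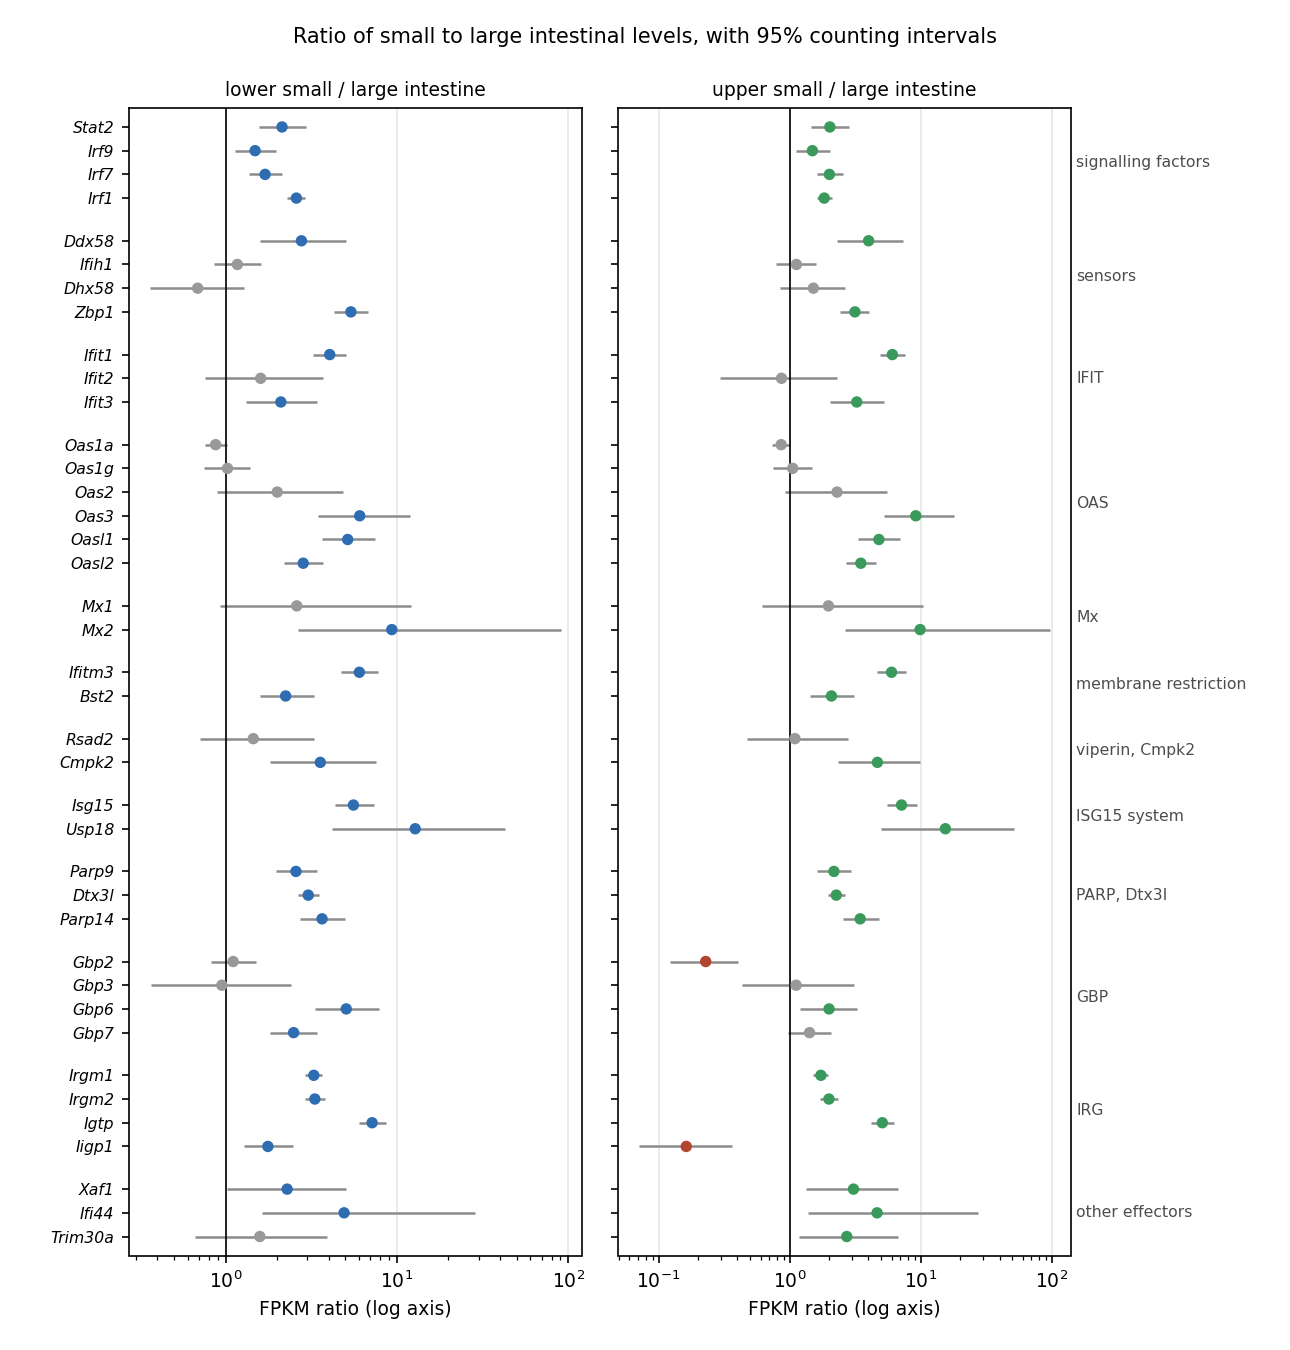
Ratio of the lower (left) and upper (right) small intestinal level to the large intestinal level of each member (x axis, log scale), with 95% counting intervals as lines. Coloured points have an interval that excludes 1, blue or green where the small intestine was higher and red where the large intestine was higher, and grey points have one that includes 1. Gbp2 and Iigp1 are the red points, in the comparison with the upper library.

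The GTPases of the GBP and IRG families, which attack the vacuoles of intracellular microbes and respond strongly to interferon gamma, included the 3 members called higher in the lower than in the upper small intestine. These were Gbp2, Gbp6 and Iigp1, and the other 5 did not pass the rule of size. Of the IRG genes, Irgm1 was at 22.5, 73.6 and 39.0 FPKM, Irgm2 at 8.94, 29.6 and 17.8 FPKM and Igtp at 8.65, 61.95 and 44.1 FPKM. For these 3 genes the order was lower, upper, large, and each step exceeded counting error. Igtp and Irgm2 overlap in the annotation by 7974 bases on the same strand, and 11.8% of the 50-base words of Igtp occur in other genes. Iigp1 was at 4.80, 8.47 and 0.781 FPKM, lowest in the upper library, with a lower to upper ratio of 10.8 (5.08 to 24.5).

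Gbp2 was also lowest in the upper library, at 10.5, 11.6 and 2.40 FPKM, with a lower to upper ratio of 4.83 (2.78 to 8.86). Its neighbours on chromosome 3 did not share this, with Gbp3 at 2.51, 2.39 and 2.82 FPKM and Gbp7 at 2.51, 6.25 and 3.56 FPKM. Gbp6 was at 1.22, 6.18 and 2.44 FPKM, but 70.7% of its 50-base words occur in other genes, so its value is uncertain. Gbp2 and Iigp1 were the only members called higher in the large than in the upper intestine, with log2 differences of 1.76 and 1.70. Against the lower library these genes had log2 differences of -0.13 and -0.71.

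Between the parts of the small intestine few members passed the rule of size. In the lower library 3 of 39 members were higher than in the upper, Gbp2, Gbp6 and Iigp1, and none was lower, where 2.92% of 11941 measured genes were higher, 3.92% lower and 6.84% either. The median over all members was 0.05, beside 0.03 over all measured genes. Within the members the roles differed. The 8 GTPases and Irf1 had a median lower minus upper difference of 0.70, with 8 of 9 above 0. The other 30 members had a median of -0.02, with 14 above 0 and 16 below. Of all measured genes 53.9% were above 0, before any rescaling. The median of the GTPases and Irf1 was 0.34 to 0.80, and 8 of 9 were above 0, under each of the 4 scalings tried. The share of all genes above 0 under the other scalings was not computed. The median of the other members ran from -0.40 to 0.07, while that of all measured genes ran from -0.33 to 0.12. Relative to the all-gene median, the GTPases and Irf1 were at 0.67 to 0.68 and the others at -0.07 to -0.05. The grouping was made after other results of these data were known, and the difference between the groups was not tested.

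Counting intervals excluded 1 for 10 members that were higher in the lower part and 7 that were higher in the upper part. Here too the share over all genes was not computed. The first set held Irf1, Zbp1, Dtx3l, Gbp2, Gbp6, Gbp7, Irgm1, Irgm2, Igtp and Iigp1. The second held Ddx58, Dhx58, Ifit1, Ifit3, Oas3, Oasl2 and Isg15. The lower to upper ratio of Ifit1 was 0.666 (0.588 to 0.753) and that of Isg15 0.7797 (0.682 to 0.891). None of these 7 reached the rule of size, Dhx58 coming nearest at a log2 difference of -0.99. The 8 members with a GAS core in the window had a median lower minus upper difference of 0.49 and the 21 without one -0.17. Those 8 include Irf1, Gbp7, Irgm2 and Igtp, which also belong to the GTPases and Irf1 grouped above. The others were Ifit2 at 0.61, Bst2 at 0.10, Oas1a at 0.02 and Ifitm3 at 0.01. Of the GTPases with a window but no GAS core, Gbp2, Irgm1 and Gbp3 were at 1.89, 0.90 and -0.17. The medians of large minus lower differences were -1.23 with the GAS core and -1.04 without, and this split was not tested. The 19 members with an ISRE core had a median of 0.02 and the 10 without one 0.03. The medians of large minus lower differences were -1.05 with the ISRE core and -1.40 without. Those of large minus upper differences were -0.97 with it and -1.23 without, and the ISRE split was not tested.

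**Figure D4:**
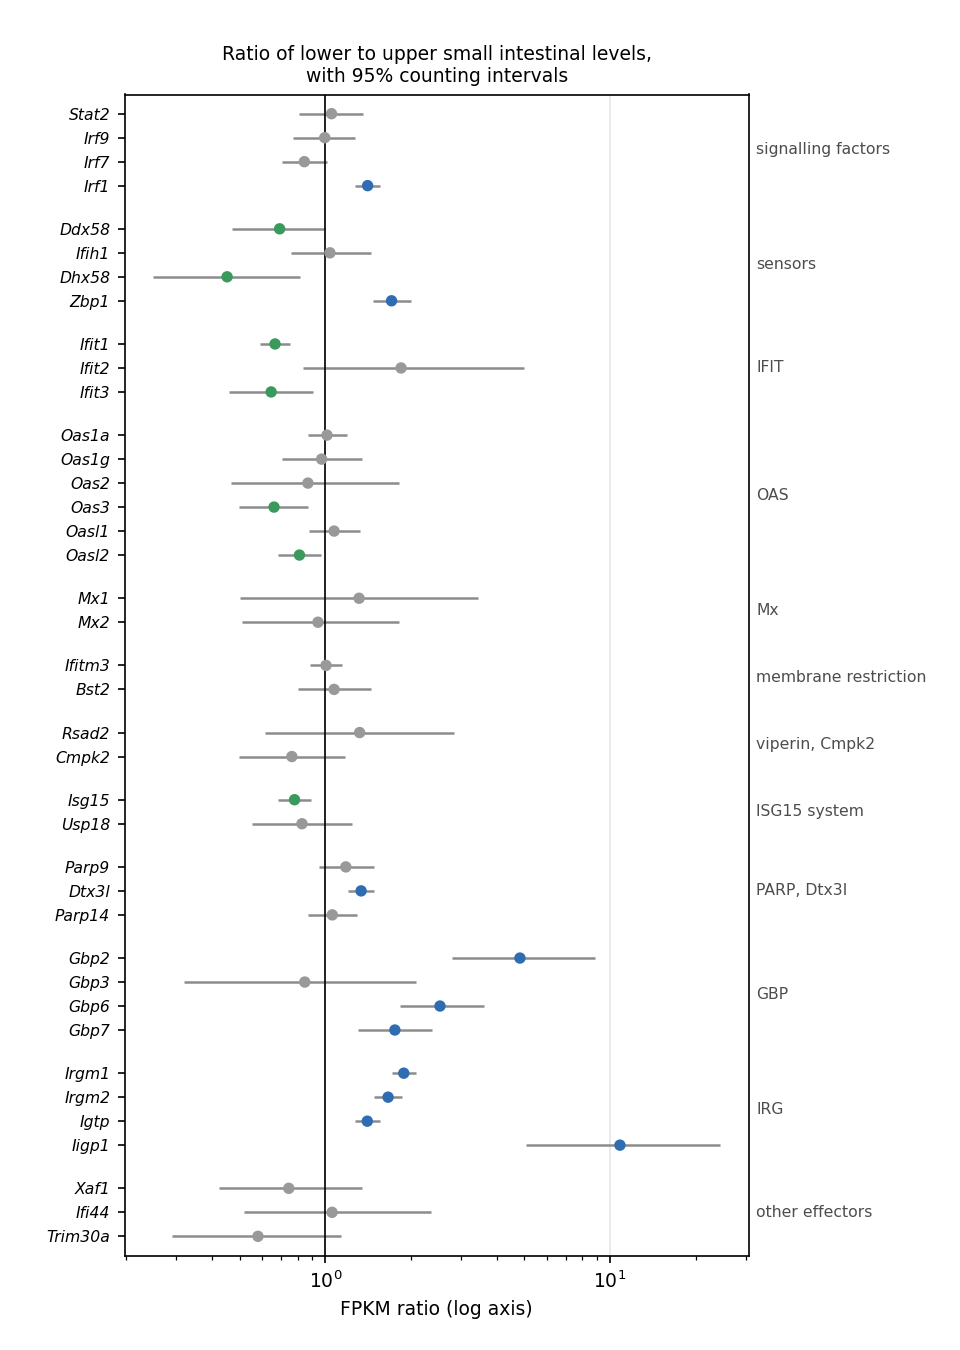
Ratio of the lower to the upper small intestinal level of each member (x axis, log scale), with 95% counting intervals as lines. Blue points were higher in the lower and green points higher in the upper part with an interval that excludes 1, and the GBP and IRG genes other than Gbp3 are all blue.

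The genes upstream of the members were then examined from lists of the same pathway. Of 21 interferon genes, 19 were listed at 0 in all 3 libraries, among them Ifnb1, Ifnl2 and Ifnl3, and a listed 0 can be a failed estimate. Ifng, which encodes interferon gamma, was at 0.218, 2.44 and 1.005 FPKM, on about 1, 10 and 3 implied reads. Its lower to large ratio was 11.2 (1.10 to 337) and its lower to upper ratio 2.43 (0.576 to 12.7). Ifnk was at 0.178 FPKM in the large library and listed at 0 in the others. Ifng is a product of lymphocytes, whose T cell markers are given above.

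Receptor genes mostly stayed within the rule of size. None of the 6 was called in the comparison of large and lower, and Ifnar2 alone was called, as lower in the large, against the upper library. Between the parts of the small intestine Ifnar2 alone was called too, as lower in the lower library, at a log2 difference of -1.17. Ifnar1 and Ifnar2, for the type I receptor, were at 5.67, 8.09 and 8.002 FPKM and 3.30, 5.06 and 12.6 FPKM. Ifnlr1, the specific chain of the type III receptor, was at 4.96, 6.47 and 9.57 FPKM, and Il10rb, its partner chain, at 40.2, 38.7 and 58.3 FPKM. Ifngr1, the ligand-binding chain for interferon gamma, went the other way, at 112, 78.5 and 65.3 FPKM, with a lower to large ratio of 0.702 (0.594 to 0.829). Ifngr2 was at 71.7, 61.9 and 68.9 FPKM.

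Of the receptor-bound kinases, Jak1 and Tyk2 were level, at 27.8, 28.3 and 29.6 FPKM and 11.2, 12.2 and 11.5 FPKM. Jak2 was at 21.4, 33.8 and 45.6 FPKM, with ratios of 1.58 (1.40 to 1.78) and 2.13 (1.88 to 2.41) to the large library, and was called lower in the large library against the upper one. Of 13 inhibitor genes, 2 were called lower in the large library in each comparison and none higher, where 10.5% and 11.7% of all measured genes were called lower, so the count is near the background. These were Socs1 and Socs3, cytokine-induced inhibitors of JAK kinases, at 1.45, 11.5 and 6.08 FPKM and 5.76, 47.4 and 28.4 FPKM. Their order of levels, lower then upper then large, was that of the IRG genes except Iigp1. Of the 20 genes for nucleic acid sensing and interferon induction, 1 of 16 measured was lower in the large library against the lower library, Irf8, at 28.8, 97.2 and 53.0 FPKM. Against the upper library 1 of 15 was lower, Tbk1, a kinase that activates Irf3, at 21.1, 36.9 and 46.5 FPKM. With so few genes these counts cannot be told from the background of 10.5% and 11.7%. The median log2 difference of the list was -0.43 against the lower library, with 14 genes below 0 and 2 above. Against the upper library it was -0.30, with 12 genes below 0 and 3 above. The medians over all measured genes were near 0, and this difference was not tested. Nlrx1, a mitochondrial regulator, was called higher in the large than in the upper library, at 7.28, 4.85 and 1.64 FPKM.

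**Figure D5:**
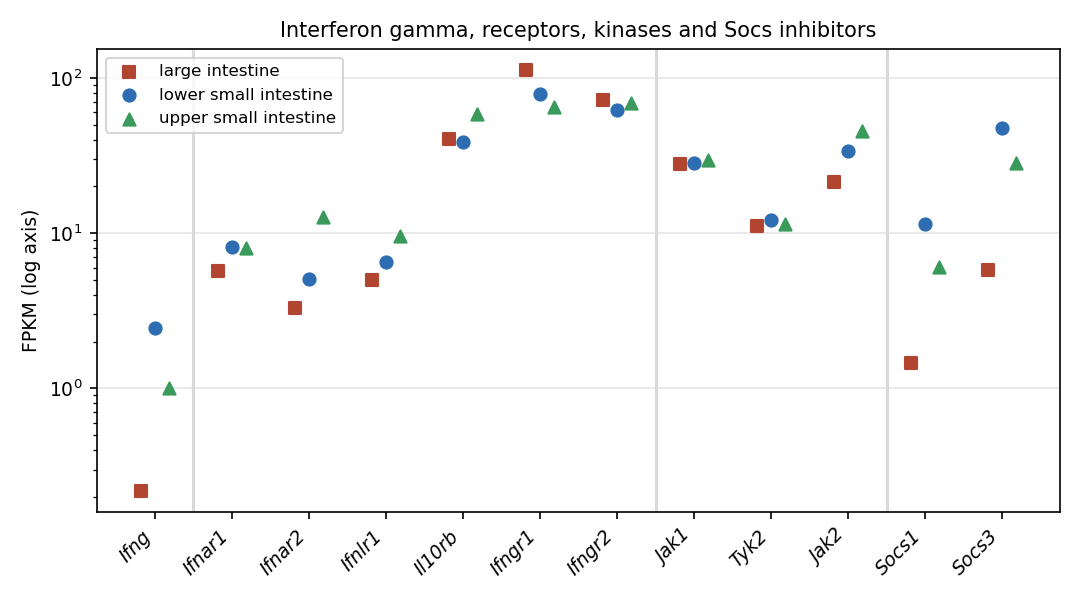
FPKM (y axis, log scale) of interferon gamma, the interferon receptor chains, Jak1, Tyk2, Jak2 and 2 Socs inhibitors in the 1 library of each region. Jak1 and Tyk2 lie at 1 level in the 3 libraries, whereas Socs1 and Socs3 are lowest in the large intestine.

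A further list of 90 interferon-responsive genes, none of them a member, was set beside the members. It too was chosen with earlier results of these data known, so it is no independent support. Of 78 measured, 36 were lower and 4 higher in the large library against the lower one, where 10.5% of all measured genes were lower and 9.75% higher. The median log2 difference of the list was -0.97. Against the upper library 34 of 74 were lower and 4 higher, where 11.7% and 11.2% of all measured genes were, with a list median of -0.87. Ido1, an enzyme of tryptophan breakdown induced by interferon gamma, was at 0.924, 36.0 and 12.4 FPKM, and Ciita, the switch of MHC class II expression, at 0.769, 18.0 and 7.62 FPKM. Lgals9, a galectin, was at 51.0, 437 and 402 FPKM, Lap3, a peptidase, at 30.98, 266 and 243 FPKM and Apol9a at 1.12, 14.1 and 19.01 FPKM. Aim2, a DNA sensor, went the other way at 28.6, 5.38 and 2.10 FPKM. Between the parts of the small intestine 9 of 78 were higher in the lower and 4 in the upper library, where 2.92% and 3.92% of all measured genes were. Cd274, which encodes the checkpoint ligand PD-L1, was at 1.65, 9.78 and 2.34 FPKM, and Cxcl10, a chemokine, at 1.35, 6.595 and 1.97 FPKM. Oas1b was highest in the upper library, at 1.81, 1.498 and 6.33 FPKM. Some genes of this list, such as Ciita, are also expressed by the leukocytes whose markers differ between these libraries.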

How the data were processed

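RNA of intestinal epithelial cells was sequenced from TruSeq stranded mRNA libraries, per the labels' protocols. Each deposited file holds a single value per gene, read as FPKM computed by the authors. The unit was inferred, since per the file headers only a library name is given. TopHat2 2.0.13, Bowtie2 2.2.3, SAMtools 0.1.19, Cufflinks 2.2.1 and the build mm10 are named per the submitters' processing notes. For the annotation, filters and strand setting nothing is stated in these sources. The median ratio of libraries was near 1 although their sums ran from 521651 to 693218 FPKM, so a general shift between regions would be hidden.

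Genes entered a comparison when either library reached 1 FPKM and were called at an absolute difference of at least 1 in log2(FPKM + 1). No p-value or SD was computed, there being 1 library per region. The FPKM worth of 1 read was estimated from low values of genes with 1 transcript of at least 1500 bases in GENCODE M21. Of 400 to 406 such genes, 69.8% to 73.8% fell within 0.15 read of a whole number. The steps imply about 7299270 to 10869600 reads, uncertain if libraries were rescaled. Steps, intervals and calls were tried on simulated data with counting error alone and the same shortest transcripts. The choice of transcript and spread beyond counting error were therefore not checked. Positions come from GENCODE M21 (GRCm38). The members, roles and other lists were chosen with earlier results of these data known. All members were named, and of other lists the interferon ligands and receptors, Jak1, Tyk2, up to 4 genes of largest difference per comparison and cell type markers beside a result. Some results are not reported here. Alternatives were pseudocounts, filters, scalings and fold sizes. Python 3.11.15, NumPy 2.4.6, pandas 2.3.3 and SciPy 1.17.1 were used.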

Additional observations from a re-analysis of the deposited data

How the results depend on the processing

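The counts of members past the rule of size changed by no more than 1.5 times under most of the 9 alternatives, and no member called in a comparison changed sign under another pseudocount or scaling. Against the lower library, members lower in the large one numbered 23, and 14 under a 3-fold rule, where the share of all genes called lower went from 10.5% to 5.28%. Members lower in the large than in the upper library numbered 20, but 12 with a pseudocount of 5 FPKM and 12 under a 3-fold rule, while the share of all genes went from 11.7% to 6.56% and 6.01%. The 2 members higher in the large than in the upper library became 1 with a pseudocount of 5 FPKM and 1 with a filter of 5 FPKM. The share of all genes higher in the large library went from 11.2% to 5.84% and 10.7%. Members higher in the lower than in the upper library numbered 3, and 8 under a 1.5-fold rule, where the share of all genes went from 2.92% to 7.48%. Those lower there, none in the reported setting, were 1 with a pseudocount of 0.1 FPKM, 2 with scaling to the epithelial markers and 2 under a 1.5-fold rule. The share of all genes lower went from 3.92% to 5.32%, 7.28% and 8.53%, so these counts are no more than near the background. A larger pseudocount pulls low genes together and a stricter fold passes fewer genes by construction. Of 585 differences of single members under another pseudocount or scaling, 525 moved by less than their counting interval reaches to each side on average, on the log2 scale, and 60 by more. Intervals are wide for Mx1, Mx2, Ifi44, Usp18 and Ifng, with about 1 to 4 implied reads in the large library. These read numbers are low estimates taken from the shortest annotated transcript, so depth alone need not be the limit. No paired analysis was possible because each region has 1 library.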

Other observations

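On the list of 90 other interferon-responsive genes, a few ran against the rest, and they are named here after their values were seen. Isg20, an exonuclease, was at 19.5 FPKM in the large, 1.94 FPKM in the lower and 2.05 FPKM in the upper library, with a lower to large ratio of 0.0997 (0.0549 to 0.174). Tor3a was at 11.9, 5.44 and 3.36 FPKM in the same order and Ifi27 at 39.9, 16.1 and 32.8 FPKM. A few genes of antigen presentation were also picked from that list after their values were seen, so their shared direction is no result. Psmb8, a subunit of the immunoproteasome, was at 31.0, 194 and 155 FPKM, Psmb9, another, at 18.6, 152 and 118 FPKM and Tap1, a peptide transporter subunit, at 11.3, 79.7 and 51.2 FPKM. B2m, the light chain of MHC class I, was at 516, 1898 and 1960 FPKM. Nlrc5, the activator of MHC class I genes, was at 0.728, 9.07 and 5.75 FPKM.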
